A study of Mus musculus with 77 samples.

Results

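Glo1, Gsr, Nnt, Alad and Gpnmb are 5 genes at which inbred mouse strains are known to carry copy-number or coding variants, or which act beside such a gene in the same pathway. They were picked by name, with earlier results of these data known. All 5 were present among the 13084 genes measured in mouse blood. They were also among the 16587 genes measured in AGO2-bound mRNA from the BNST (bed nucleus of the stria terminalis), a limbic forebrain nucleus. The blood libraries came from male mice of strains C57BL/6Crl (B6) and DBA/2Crl (D2), 8 weeks old at dissection and killed days after chronic social defeat stress (CSDS), a protocol of daily defeats by a larger aggressor, or after a control condition without defeat. Each library held the total RNA of 1 mouse after depletion of ribosomal and globin RNA. There were 5 B6 controls, 5 stress-resilient B6 mice, 5 stress-susceptible B6 mice, 5 D2 controls and 5 stress-susceptible D2 mice, where susceptible mice avoided a social target more than same-strain controls did and resilient mice did not. Per the study's methods, the defeated mice profiled were those with the most extreme social interaction, and controls had values near their mean. A forced swim test was also run between defeat and tissue collection, and the labels do not say which mice underwent it. The BNST libraries held mRNA pulled down with AGO2, the core protein of the miRNA silencing complex. They came from pools of 3 BNSTs of male B6 mice, also 8 weeks old, with 5 control, 5 resilient and 4 susceptible pools. The BNST data therefore hold no strain comparison, and they measure mRNA on AGO2 rather than all mRNA of the tissue.

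Glo1 encodes glyoxalase 1, which uses glutathione to detoxify methylglyoxal, a reactive by-product of glycolysis. Gsr encodes glutathione reductase, which restores reduced glutathione with electrons from NADPH, and Nnt encodes the mitochondrial transhydrogenase that makes NADPH from NADH. Alad encodes delta-aminolevulinate dehydratase, an early enzyme of haem synthesis that is abundant in red cell precursors, and Gpnmb encodes a transmembrane glycoprotein of pigment cells and macrophages. Outside these data, a tandem duplication that covers Glo1 has been described in DBA/2J and is lacking in C57BL/6J, and Alad has been described as duplicated in DBA/2 mice. Gpnmb carries a premature stop codon in DBA/2J, and Nnt carries a deletion of several exons in C57BL/6J that its N substrains lack. The labels give the strains as C57BL/6Crl and DBA/2Crl, and the study's methods name them C57BL/6NCrl and DBA/2NCrl. Which of these variants the mice carried was not measured here.

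On genome build GRCm38 with GENCODE M21 annotation, Glo1 lies on the minus strand of chromosome 17 at 30584936 to 30626871, and Gsr on the plus strand of chromosome 8 at 33652523 to 33698163. Nnt lies on the minus strand of chromosome 13 at 119335448 to 119408997, Alad on the minus strand of chromosome 4 at 62509169 to 62519918, and Gpnmb on the plus strand of chromosome 6 at 49036546 to 49070929. Glo1 overlaps 6 other annotated entries, of which only Dnah8, on the opposite strand with 2518 bases in common, was in the blood data. Gsr overlaps Gm24727, an entry on the same strand with 144 bases in common and a row in both data sets. A second entry, also named Nnt, overlaps Nnt over 73425 bases but had no row in either data set. The library kits kept the strand, but the strand setting used in counting was not given in the sources used here, so reads of overlapping entries could not be told apart with certainty.

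RefSeq promoter windows on GRCm38.p6, from 250 bases before to 50 bases after an annotated start, were at hand for Glo1, Alad and Gpnmb. The windows of Glo1 and Alad are shown because these genes rose and fell with red cell markers between mice, and Alad differed most between the strains. Capitals mark matches on either strand to the GC box CCCGCC, present in 35.3% of 32851 promoter windows of that length, to the motif CACCC, in 57.5%, and to the E-box CACGTG, in 7.15%. The Alad windows belong to separate annotated starts and overlap each other. The Glo1 window belongs to a RefSeq start inside the GENCODE span given above, which reaches to 30626871. The overlap with Dnah8, from 30624354 on, lies upstream of that start.
Glo1, chr17:30612610-30612909, minus strand: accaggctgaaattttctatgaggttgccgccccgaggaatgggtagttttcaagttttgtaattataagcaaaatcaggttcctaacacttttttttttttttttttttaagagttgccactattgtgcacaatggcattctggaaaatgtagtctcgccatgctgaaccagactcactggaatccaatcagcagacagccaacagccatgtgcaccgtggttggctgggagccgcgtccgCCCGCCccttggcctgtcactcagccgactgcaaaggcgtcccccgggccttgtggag
Alad window 1, chr4:62520014-62520313, minus strand: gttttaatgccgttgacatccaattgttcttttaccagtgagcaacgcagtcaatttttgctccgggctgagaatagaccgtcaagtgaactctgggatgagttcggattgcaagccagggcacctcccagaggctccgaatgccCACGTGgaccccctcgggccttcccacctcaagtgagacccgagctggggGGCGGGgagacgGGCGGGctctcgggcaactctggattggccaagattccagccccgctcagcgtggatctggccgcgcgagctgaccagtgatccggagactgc
Alad window 2, chr4:62519860-62520159, minus strand: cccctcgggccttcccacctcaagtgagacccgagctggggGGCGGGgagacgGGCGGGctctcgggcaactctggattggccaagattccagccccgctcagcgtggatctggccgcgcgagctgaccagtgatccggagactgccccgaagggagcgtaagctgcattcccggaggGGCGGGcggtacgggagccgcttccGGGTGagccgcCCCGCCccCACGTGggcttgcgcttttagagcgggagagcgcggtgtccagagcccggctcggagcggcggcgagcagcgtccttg
The Glo1 window held 1 GC box, Alad window 1 held 2 with 1 E-box, and Alad window 2 held 4 with 1 E-box and 1 CACCC match. None of these 3 windows, nor that of Gpnmb, held the GATA motif AGATAA (11.2% of all windows), the TATA box TATAAA (13.6%) or the antioxidant response element core TGACNNNGC (12.4%). These are letters of the reference genome, which comes from a B6 strain, and no D2 sequence was read.

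Values are deposited log2 CPM, read counts on a log2 scale relative to library size, and a gene was called differentially expressed (DE) where limma fitted to all genes of a data set gave an unadjusted p under 0.05 with groups at least 1.2-fold apart, the thresholds of the study; adjusted p-values are Benjamini-Hochberg values over all genes tested. The blood libraries held 9751603 to 15878495 reads and the BNST libraries 3701281 to 10659882. Labels and column headings disagreed on the group of 2 D2 mice: D2 control replicate 2 carries a heading of the susceptible group, and D2 susceptible replicate 2 one of the control group. Groups follow the labels, and each strain or defeat result that includes D2 mice is also given without these 2 mice where that changed the call. The labels do not name litters, the title prefixes of the mice are not explained, and the p-values measure the spread between mice or pools of a group. In blood the title prefixes were EC3 and EC4 in B6 and ED3, ED4 and ED6 in D2. No prefix held both strains, so strain and prefix cannot be told apart in the strain differences. Levels were not compared between genes, because the annotation used in counting was not at hand to set them per length.

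**Figure D1:**
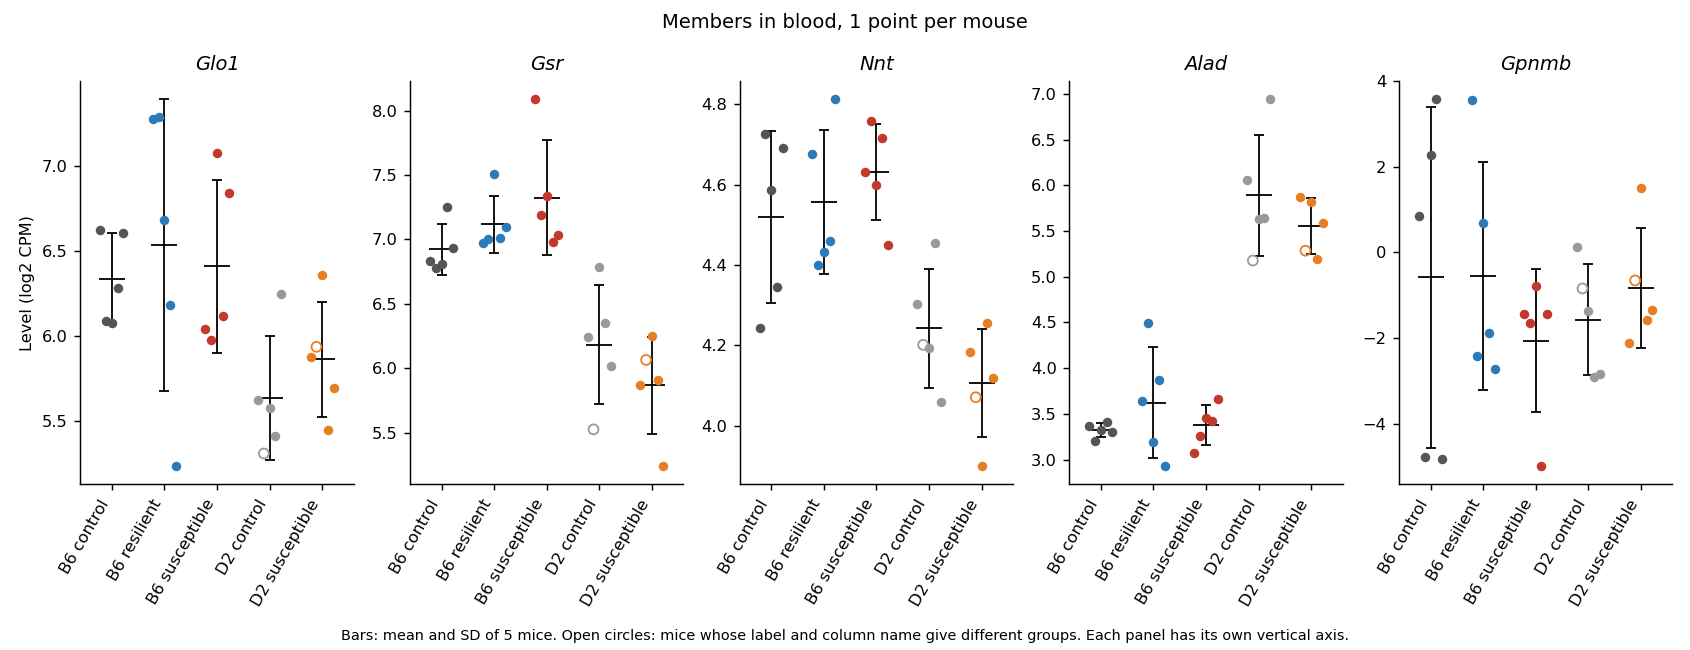
Level of each gene in every blood library (vertical axis, log2 CPM) by group, with 1 point per mouse, bars for the mean and SD of 5 mice, and open circles for the 2 mice whose label and column heading differ. All 10 D2 mice lie above all 15 B6 mice for Alad, 9 of 10 lie below every B6 mouse for Gsr, and none lies outside the B6 range for Glo1.

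The largest strain difference among the 5 genes was in Alad, which was about 6-fold more abundant in the blood of D2 than of B6 control mice. B6 control replicates 1 to 5 had 3.36, 3.21, 3.32, 3.41 and 3.31 log2 CPM, and D2 control replicates 1 to 5 had 6.05, 5.18, 5.63, 5.64 and 6.94. Every D2 control exceeded every B6 control, and the lowest D2 mouse of either condition, at 5.18 log2 CPM, lay above the highest of all 15 B6 mice, at 4.49. The means were 5.89 ± 0.66 (SD, n = 5) in D2 and 3.32 ± 0.076 (SD, n = 5) in B6 controls, a difference of 2.57 on the log2 scale (SE 0.26, 95% interval 2.03 to 3.10), or 5.93-fold, with limma's adjusted p = 5.43e-08 and an exact two-sided permutation p = 0.00794, the smallest that 5 against 5 mice allow. The reads behind it numbered 80 to 189 per B6 library and 460 to 1330 per D2 library. Among susceptible mice, the B6 values were 3.08, 3.26, 3.45, 3.42 and 3.67 and the D2 values 5.87, 5.28, 5.81, 5.20 and 5.59 log2 CPM, again without overlap. Alad was 4.52-fold higher in susceptible D2 mice, by 2.18 on the log2 scale (SE 0.26, adjusted p = 7.86e-07 in limma). Without the 2 mice of uncertain group the differences were 2.74 and 2.24.

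Gsr was lower in D2 blood. B6 control replicates 1 to 5 had 6.83, 6.78, 6.81, 7.26 and 6.93 log2 CPM, and D2 controls had 6.24, 5.53, 6.78, 6.35 and 6.02. Of the D2 controls, 4 of 5 lay below every B6 control, and replicate 3 lay just above the lowest of them. The difference was -0.74 on the log2 scale (SE 0.22, 95% interval -1.18 to -0.29), 1.67-fold lower in D2, with limma's adjusted p = 0.0193. Among susceptible mice the B6 values were 8.09, 7.19, 7.33, 6.98 and 7.03 and the D2 values 5.87, 6.06, 6.25, 5.91 and 5.24 log2 CPM, so that the strains no longer overlapped. There Gsr was 2.75-fold lower in D2, by -1.46 on the log2 scale (SE 0.22, adjusted p = 1.86e-05 in limma). Without the 2 mice of uncertain group, the difference was -0.57 between controls and -1.51 between susceptible mice, and Gsr was DE in both.

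Nnt was also lower in D2 blood, by less. B6 controls had 4.24, 4.73, 4.59, 4.34 and 4.69 log2 CPM and D2 controls 4.30, 4.20, 4.19, 4.45 and 4.06, groups that overlapped. The difference was -0.28 on the log2 scale (SE 0.11, limma's adjusted p = 0.107, exact permutation p = 0.0556), 1.21-fold lower in D2 and a call close to the fold limit, which was lost without B6 control replicate 2, 3 or 5 or D2 control replicate 5. Susceptible B6 mice had 4.63, 4.76, 4.60, 4.72 and 4.45 log2 CPM and susceptible D2 mice 4.18, 4.07, 3.90, 4.25 and 4.12, which did not overlap, a difference of -0.53 (SE 0.11, adjusted p = 0.0017 in limma), or 1.44-fold. Over all mice, 7 of 10 D2 mice lay below every B6 mouse. Nnt was read in every library of both strains, with 169 to 654 reads in B6 and 171 to 410 in D2. When reads were scaled to their own library total instead, the differences were -0.10 and -0.26 and neither was a call, while the median of all genes moved to 0.18 and 0.25. This setting, named own-total scaling or own totals below, also used voom's precision weights and no mean-variance trend. The parts of scaling and weights in its results were not told apart.

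Glo1 was lower, not higher, in D2 blood. B6 controls had 6.62, 6.09, 6.07, 6.28 and 6.60 log2 CPM and D2 controls 5.62, 5.31, 5.58, 5.41 and 6.25, so that 4 of 5 D2 controls lay below every B6 control. The mean was 6.34 ± 0.27 (SD, n = 5) in B6 and 5.63 ± 0.36 (SD, n = 5) in D2 controls, a difference of -0.70 on the log2 scale (SE 0.30, 95% interval -1.32 to -0.084), 1.63-fold lower in D2, a call with limma's adjusted p = 0.124 and an exact permutation p = 0.0238. Susceptible B6 mice had 6.04, 5.98, 7.07, 6.12 and 6.84 and susceptible D2 mice 5.88, 5.94, 6.36, 5.45 and 5.70 log2 CPM, a difference of -0.55 (SE 0.30, 95% interval -1.16 to 0.072, exact permutation p = 0.0952) that did not pass the test. The control difference was -0.62 without the 2 mice of uncertain group (adjusted p = 0.218 in limma) and no longer a call, and it was also no call when B6 control replicate 1 or 5 or D2 control replicate 2 or 4 was left out on its own.

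Gpnmb was barely read in blood. B6 libraries held 0 to 173 reads, with 3 of 15 at 0, and D2 libraries 1 to 32. B6 controls had 22, 0, 71, 173 and 0 reads, and D2 controls 16, 10, 5, 2 and 1. The fitted differences of -0.99 between controls (95% interval -3.90 to 1.93) and 1.23 between susceptible mice (95% interval -1.69 to 4.15) did not pass the test. The spread within groups was wide, with an SD of 3.98 on the log2 scale among B6 controls.

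Of the 5 genes, 4 were DE between D2 and B6 controls, beside 26.4% of the 13084 genes tested, and 3 were DE between susceptible D2 and B6 mice, beside 23.7%. Because the 5 were chosen with earlier results of these data known, these shares are a description, not a test. Alad was the only one of the 5 that was DE and higher in D2, as 15% and 11.3% of all genes were, and the others that were DE were lower, as 11.4% and 12.4% were. In both strain comparisons Alad and Gsr also passed an adjusted p of 0.05, as 15.5% and 13.9% of all genes did. D2 reads had been aligned to the B6 reference genome, and the part of mapping in these differences was not tested.

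**Figure D2:**
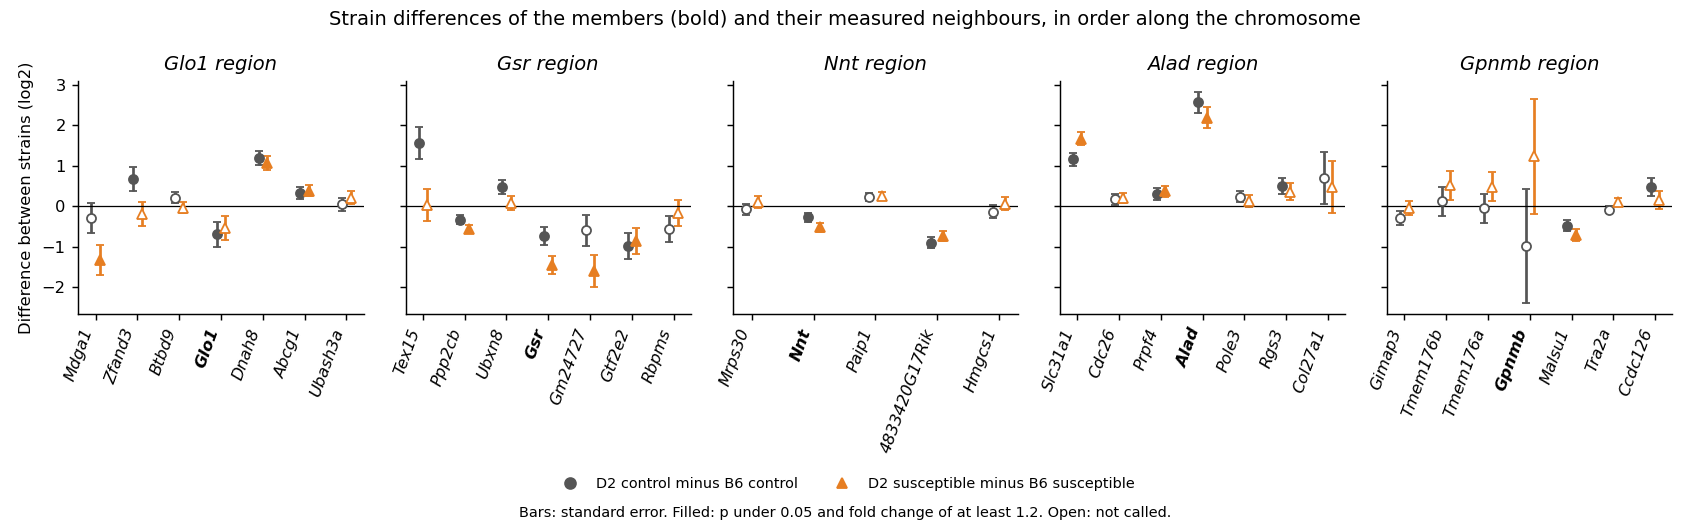
Strain difference (vertical axis, log2) of each gene and of its nearest measured neighbours, in order along the chromosome, between control mice (circles) and susceptible mice (triangles), with bars for the standard error and filled symbols for calls. Dnah8 beside Glo1 and Slc31a1 near Alad were higher in D2 in both comparisons, and Pole3, next to Alad, was a call in neither.

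The nearest measured neighbours differed between the strains in either direction or not at all. Beside Glo1, Dnah8, which encodes a dynein of cilia and flagella and overlaps Glo1 on the other strand, was higher in D2 by 1.18 between controls (SE 0.18, adjusted p = 2.36e-05 in limma) and 1.06 between susceptible mice (adjusted p = 9.35e-05). Btbd9, on the other side of Glo1, differed by 0.21 and -0.039 on the log2 scale and was not DE. Near Alad, Slc31a1, the copper transporter, was higher in D2 by 1.15 (SE 0.16, adjusted p = 1.04e-05 in limma) and 1.66 (adjusted p = 3.08e-08), whereas Pole3, the nearest gene to Alad, differed by 0.23 and 0.13 and was not DE. Around Gsr, the phosphatase subunit gene Ppp2cb was lower in D2 by -0.33 and -0.57, and the transcription factor subunit gene Gtf2e2 by -0.99 and -0.87, all 4 values DE, whereas Tex15 (1.55) and Ubxn8 (0.46) were higher in D2 controls and differed by 0.033 and 0.070 between susceptible mice. Beside Nnt, 4833420G17Rik was lower in D2 by -0.90 (SE 0.13, adjusted p = 8.83e-06 in limma) and -0.74, and Paip1, the nearest neighbour, was 0.22 and 0.24 higher, short of the fold limit. Malsu1, next to Gpnmb, was lower in D2 by -0.48 and -0.71, both DE. Both strain comparisons use separate mice, but all values of a neighbourhood come from the same libraries.

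Within a strain, the log2 CPM of Glo1 followed that of the red cell genes from mouse to mouse. Over the 15 B6 mice, the Glo1 level and the mean level of 9 measured erythroid markers other than globins (Alas2, Slc4a1 and others) had Pearson's r = 0.98 and Spearman's rho = 0.95, each with a permutation p of 1e-05, the smallest that 100000 permutations can give. Over the 10 D2 mice, r was 0.94 (permutation p = 2e-05) and rho 0.96 (permutation p = 6e-05), and without the 2 mice farthest from the median marker level r was 0.96 in both strains. The adjusted p over the 16 relations computed was 0.00016 in each strain. These relations were computed after the genes most like Glo1 had been seen. Gene and markers of a mouse were divided by the same effective library size. It was 0.644 times the read total in B6 resilient replicate 1, at a mean marker level of 10.08 log2 CPM. In B6 resilient replicate 5 it was 1.47 times the total, at a marker level of 7.94. The part of this shared scaling in the marker relations was not tested. The most similar genes to Glo1 over the 25 libraries were Map1lc3b (r = 0.987), Adipor1 (r = 0.981) and Foxn3 (r = 0.980), and between deviations from group means r was still 0.98, 0.97 and 0.97.

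**Figure D3:**
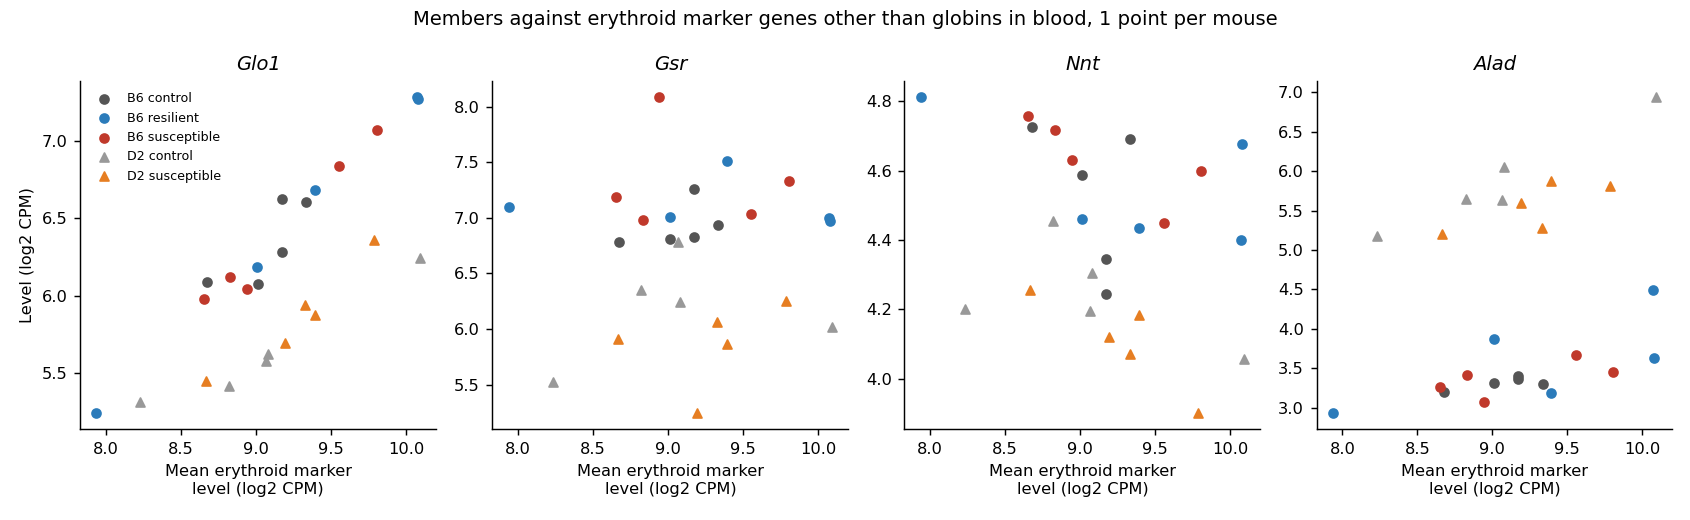
Level of Glo1, Gsr, Nnt and Alad (vertical axis, log2 CPM) against the mean level of the erythroid markers other than globins (horizontal axis, log2 CPM), with circles for B6 and triangles for D2 mice. Glo1 rises with the markers in both strains (r = 0.98 and 0.94), with the D2 mice below the B6 mice at like marker levels, and Alad lies far higher in D2.

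At like marker levels the strains were apart for Glo1. With the erythroid marker level as a term of the fit, an alternative added after the data had been seen, the Glo1 difference was -0.69 between controls (SE 0.10, adjusted p = 9.58e-06 in limma) and -0.64 between susceptible mice (SE 0.10, adjusted p = 2.49e-05), so that it was DE in both and its standard error fell from 0.30. The Alad difference was 2.58 and 2.11, the Gsr difference -0.74 and -1.47 and the Nnt difference -0.28 and -0.51 in that fit. The marker term and the genes shared the scaling of each library, and the part of that scaling in the fit was not tested. The marker list itself was not equal between the strains. Of 13 erythroid markers measured, globins included, 3 were higher and 4 lower in D2 than in B6 controls, beside 15% and 11.4% of all genes. Among them were Epb42, by -1.25, and Ermap, by 1.89, on the log2 scale. The alpha-globin gene Hba-a2 was lower in D2 by -10.39 between controls and -10.51 between susceptible mice, while its near-identical copy Hba-a1 differed by 0.15 and 0.45 and was not DE. How reads of such copies were split is uncertain, and the part of mapping was not tested. The 9 markers other than globins summed to 80295 to 135284 CPM in B6 controls and 44752 to 115299 CPM in D2 controls. In bulk blood, fewer cells of a type and less RNA per cell cannot be told apart.

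Alad also varied with the erythroid markers, less tightly, with r = 0.68 over 15 B6 mice (permutation p = 0.0056, adjusted p = 0.0224) and r = 0.77 over 10 D2 mice (permutation p = 0.00941, adjusted p = 0.0301). Without the 2 farthest mice, r was 0.63 in B6 and 0.41 in D2, so that the D2 relation rested on those mice. Spearman's rank correlation was 0.61 in B6 (permutation p = 0.0173) and 0.70 in D2 (permutation p = 0.0304). Its most similar genes over 25 libraries were Btnl10 (r = 0.969), Pold3 (r = 0.966) and Tdpx-ps1 (r = 0.960), and between deviations from group means r was 0.87, 0.81 and 0.70. Nnt moved the other way, with r = -0.46 in B6 (permutation p = 0.0839) and r = -0.64 in D2 (permutation p = 0.0438), neither of which held after adjustment (0.168 and 0.117), and its rho was -0.59 and -0.81 (permutation p = 0.0232 and 0.00727). Nnt had r = -0.49 in B6 and r = -0.84 in D2 without the 2 farthest mice. Its closest genes were Copa, Itgae and Pop5, with r from 0.85 to 0.87. Gsr did not vary with the erythroid markers (r = -0.013 in B6 and 0.19 in D2), and its relation to 10 neutrophil markers in B6 mice (r = 0.73, rho = 0.56, permutation p = 0.0049 and 0.0327) fell to r = 0.33 without the 2 farthest mice. Over the 10 D2 mice, Gsr and the neutrophil markers had r = -0.062 (permutation p = 0.866). Gsr was most like Draxin, Gcsam and Nomo1 (r = 0.93 to 0.94), and Gpnmb like Ctsk, Lepr and Mrc1 (r = 0.70 to 0.78), all as a description over the same 25 libraries. Between deviations from group means, r was 0.78, 0.76 and 0.71 for the genes most like Gsr. For those most like Nnt it was 0.68, 0.62 and 0.75, and for those most like Gpnmb 0.77, 0.78 and 0.69. Of the other blood cell lists, 5 of 7 platelet markers and 4 of 8 T cell markers were higher and 6 of 6 B cell markers lower in D2 controls. Over all genes 15% were higher and 11.4% lower. The neutrophil markers Cxcr2 (1.34) and Csf3r (1.09) and the monocyte marker Ccr2 (0.85) were also higher. The natural killer cell markers Klrk1 (-0.63) and Klrb1c (-1.27) were lower, and the other markers of these last lists were not called. The part of all these markers in the strain differences was not tested.

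Among the pathway lists, those that handle methylglyoxal, glutathione and peroxides held more lower than higher calls in D2 controls, beside 11.4% lower and 15% higher calls among all genes. The pathway lists include members and were chosen with earlier results of these data known, so their counts are a description. The balance of lower and higher calls moved under own-total scaling with its voom weights. That setting took the calls over all genes from 1494 lower and 1960 higher to 821 and 2525. The lists then held 2 lower and 2 higher, 5 lower and 3 higher, and 7 lower and 3 higher. Of 12 genes of methylglyoxal clearance, 4 were lower and 0 higher (list median -0.23 on the log2 scale, beside 0.0074 over all genes): Glo1, Hagh, which encodes glyoxalase 2 (-1.08, adjusted p = 0.0443 in limma), Aldh9a1 (-0.53, adjusted p = 0.0016) and Akr1b10 (-0.38). Of 30 genes of glutathione synthesis and use, 8 were lower and 2 higher (median -0.30). Besides Gsr, they included Slc7a11, the cystine importer (-1.67, adjusted p = 0.0102), Gclm, a subunit of the enzyme for the first step of glutathione synthesis (-1.04, adjusted p = 0.0294), and Gsto1, a glutathione transferase (-1.64, adjusted p = 0.0042). The glutaredoxin gene Glrx was higher in D2 by 2.09 on the log2 scale, and the transferase gene Gstt1 was higher as well (adjusted p = 0.0078 in limma). Of 20 thioredoxin, peroxiredoxin and other antioxidant genes, 8 were lower, such as Cat, which encodes catalase (-1.97, adjusted p = 0.0015), and Prdx3 (-1.09, adjusted p = 0.00049), and 2 were higher.

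The other lists were mixed. Of 15 genes of NADPH supply, 3 were higher, such as Pgd (0.88), and 2 lower, Nnt among them. Of 16 haem synthesis genes, 3 were higher in D2 controls, namely Alad, Slc25a38, the mitochondrial glycine carrier (1.29, adjusted p = 0.00061 in limma), and Tmem14c (0.35), and 2 were lower, Cpox (-0.68) and Ppox (-0.54), so that the list median was -0.034. Of 18 genes of the pigment cell, lysosome and GPNMB partner list, 2 were higher, Lamp2 (0.70) and Tfe3 (0.41), and 0 lower. Between susceptible mice, where 12.4% of all genes were lower and 11.3% higher, 4 of 12 methylglyoxal clearance genes were lower and 0 higher, 7 of 30 glutathione genes lower and 1 higher, 7 of 20 antioxidant genes lower and 0 higher, and 1 of 16 haem synthesis genes lower and 3 higher. Under own totals the first 3 lists held 2 lower and 0 higher, 4 lower and 3 higher, and 6 lower and 0 higher.

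Within a strain, defeat moved none of the 5 genes past the test in blood. In B6 mice 2.11% of genes were DE between resilient and control mice, 4.50% between susceptible and control mice and 2.03% between susceptible and resilient mice, and in D2 mice 1.57% were DE between susceptible and control mice; 0 genes passed an adjusted p of 0.05 in each of these 4 limma comparisons, and 290, 610, 283 and 225 had an unadjusted p under 0.05. The D2 count depended on the grouping of 2 mice: the 206 calls became 519 without both, 489 without D2 control replicate 2 and 890 by column heading. The comparisons with controls share those controls. For Glo1, the susceptible minus control difference was 0.074 in B6 (95% interval -0.54 to 0.69) and 0.23 in D2 (95% interval -0.39 to 0.85). Resilient B6 mice had the widest Glo1 spread of any group, with 7.27, 7.29, 6.68, 6.18 and 5.24 log2 CPM, on both sides of the controls, and a difference from them of 0.20 (95% interval -0.42 to 0.81). Their erythroid markers were as wide, with a sum of 46192 to 206824 CPM. The effective library sizes of these mice ran from 0.644 to 1.47 times the read total. The part of this scaling in the spread was not tested.

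For Alad the susceptible minus control difference was 0.054 in B6 (95% interval -0.48 to 0.59) and -0.34 in D2 (95% interval -0.87 to 0.20), and for Nnt it was 0.11 (95% interval -0.12 to 0.35) and -0.14 (95% interval -0.37 to 0.097). Resilient B6 mice had 3.64, 4.49, 3.19, 3.87 and 2.93 log2 CPM of Alad, 0.30 above controls (95% interval -0.23 to 0.84), and Nnt, with 4.68, 4.40, 4.43, 4.46 and 4.81, differed there by 0.037 (95% interval -0.20 to 0.27). Gpnmb differed by -1.48 in susceptible B6 and 0.73 in susceptible D2 mice, neither past the test.

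The mean Gsr difference between susceptible and control mice had opposite signs in the 2 strains, with values that overlapped in both. Resilient B6 mice, with 6.97, 7.00, 7.51, 7.01 and 7.10 log2 CPM, differed from controls by 0.19 (95% interval -0.25 to 0.64), which did not pass the test. Gsr was 0.40 higher on the log2 scale in susceptible than in control B6 mice (SE 0.22, 95% interval -0.042 to 0.85, exact permutation p = 0.0714) and 0.32 lower in susceptible than in control D2 mice (-0.32, SE 0.22, 95% interval -0.76 to 0.13, exact permutation p = 0.286), and neither difference was a call. The B6 value became a call without B6 control replicate 4 or susceptible replicate 4 or 5, and the D2 value without D2 control replicate 2. The difference of the 2 defeat effects was -0.72 (SE 0.31, 95% interval -1.35 to -0.091) with limma's adjusted p = 0.918, a call by the unadjusted p beside 5.37% of all genes. For the other 4 genes the difference of the defeat effects was 0.16 (Glo1), -0.25 (Nnt), -0.39 (Alad) and 2.22 (Gpnmb), and none was a call. Without the 2 mice of uncertain group the Gsr value was -0.94, and the drop in D2 was -0.53, then a call by the unadjusted p, which no gene there passed after adjustment. Susceptible B6 replicate 1, the highest of all libraries for Gsr at 8.09 log2 CPM, decided the call of the interaction: without it the value was -0.53, and it was no call either without D2 control replicate 3 or D2 susceptible replicate 5. In B6, 6 of 7 platelet markers were higher in susceptible than in control mice, beside 4.50% of all genes called in either direction. Neutrophil markers summed to 1290 to 5762 CPM in susceptible and 1197 to 3486 CPM in control mice. Susceptible B6 replicate 1 also had the highest mean neutrophil marker level of all blood libraries, 7.31 log2 CPM. The part of these markers in the Gsr values was not tested.

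**Figure D4:**
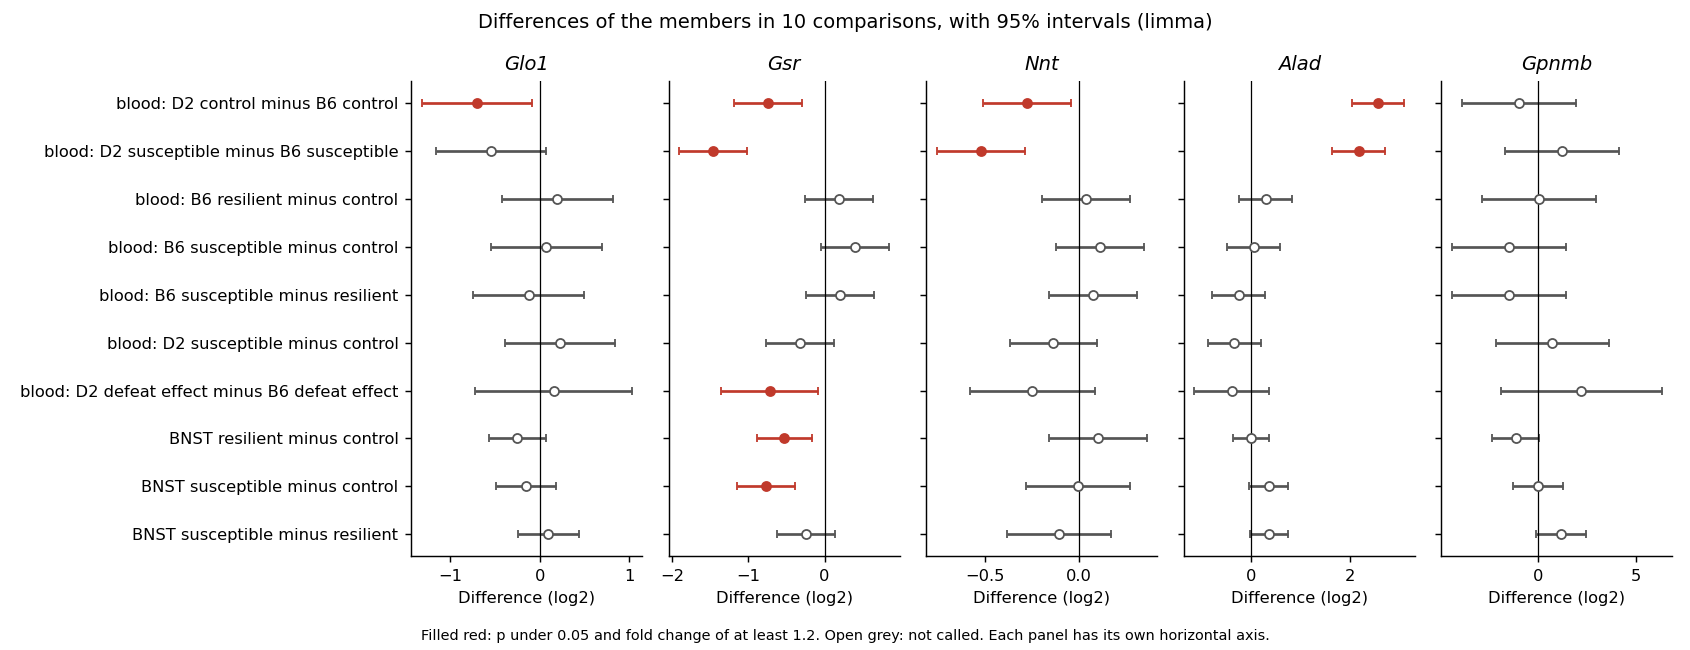
Difference of each gene (horizontal axis, log2, own scale per panel) in 7 blood and 3 BNST comparisons, with 95% intervals from limma and filled red points for calls. Calls are confined in these panels to the strain comparisons, the Gsr interaction and Gsr in the BNST.

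In the order of group means in blood, the B6 groups lay on one side of the D2 groups for 4 genes. For Gsr the means ran from susceptible B6 (7.33 log2 CPM) through resilient B6 (7.12), control B6 (6.92) and control D2 (6.18) to susceptible D2 (5.87), and only the step between control B6 and control D2 passed the test. For Nnt the same order held, from 4.63 to 4.11 log2 CPM, with the same single step. For Glo1 the order was resilient B6 (6.53), susceptible B6 (6.41), control B6 (6.34), susceptible D2 (5.86) and control D2 (5.63), and the neighbouring B6 groups, as well as the D2 groups, did not differ beyond their spread; the step between control B6 and susceptible D2 mice was not tested. For Alad it was control D2 (5.89), susceptible D2 (5.55), resilient B6 (3.62), susceptible B6 (3.38) and control B6 (3.32), where only the step between the strains was free of overlap and that step was not tested itself. The Gpnmb means, from -0.56 in resilient to -2.07 in susceptible B6 mice, did not differ beyond their spread in any comparison.

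**Figure D5:**
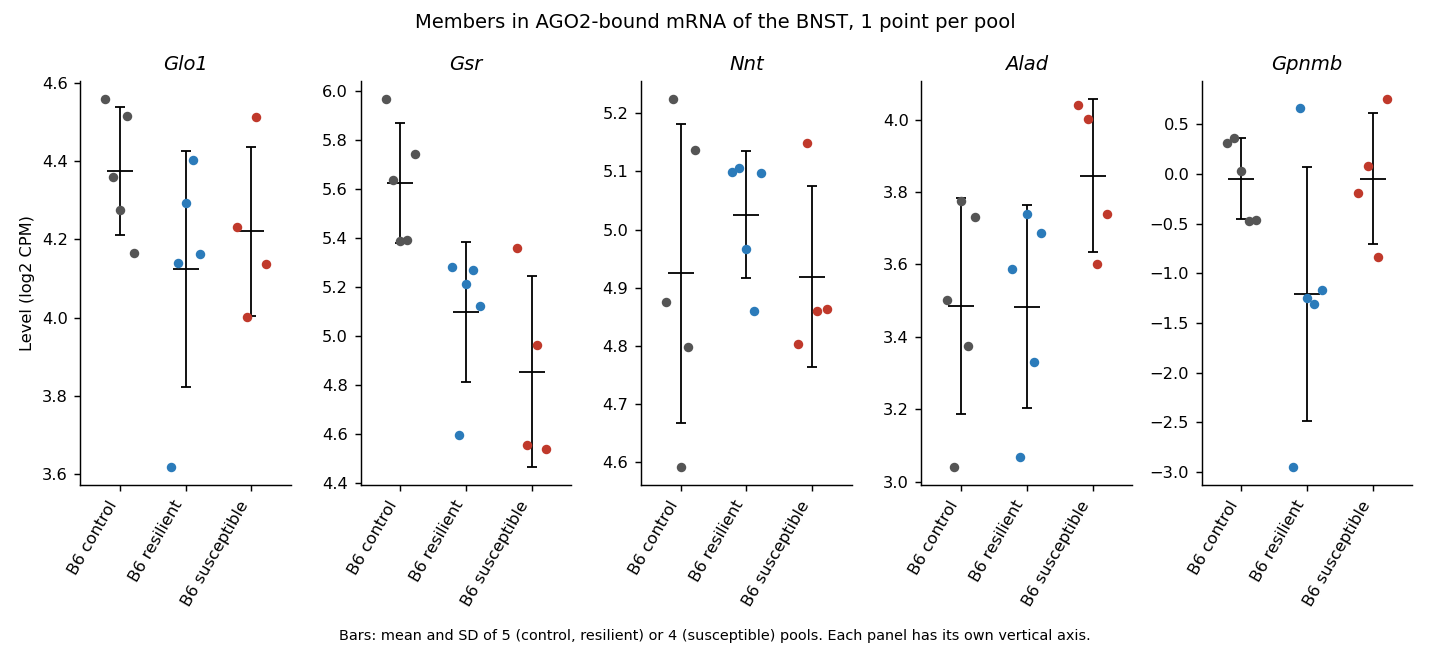
Level of each gene in AGO2-bound mRNA of every BNST pool (vertical axis, log2 CPM) by group, with 1 point per pool and bars for the mean and SD. All 5 resilient and all 4 susceptible pools lie below all 5 control pools for Gsr, and the groups overlap for the other genes.

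In the BNST of B6 mice, Gsr was less abundant on AGO2 after defeat. Control pools 1 to 5 had 5.96, 5.63, 5.38, 5.39 and 5.74 log2 CPM, resilient pools 5.28, 4.60, 5.21, 5.27 and 5.12, and susceptible pools 1 to 4 5.36, 4.55, 4.96 and 4.54. No defeated pool reached the lowest control pool. Gsr was 1.44-fold lower in resilient pools, by -0.53 on the log2 scale (SE 0.17, 95% interval -0.89 to -0.17, limma's adjusted p = 0.104, exact permutation p = 0.00794), and 1.71-fold lower in susceptible pools, by -0.77 (SE 0.18, 95% interval -1.15 to -0.39, adjusted p = 0.0287, exact permutation p = 0.0159, the smallest that 4 against 5 pools allow). Both comparisons use the same 5 control pools. Susceptible and resilient pools differed by -0.24 (95% interval -0.63 to 0.14), which did not pass the test, though it was a call when resilient replicate 2 or susceptible replicate 1 was left out. The reads behind Gsr were 99 to 397 per pool. Leaving out resilient replicate 2, the lowest of its group at 4.60 log2 CPM, gave -0.40 for resilient pools, still a call.

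Gsr was 1 of 5 genes DE in each comparison with controls, beside 17.7% of 16587 genes between resilient and control pools (1.95% by adjusted p) and 18.9% between susceptible and control pools (4.02% by adjusted p), so the share of the 5 genes was near that of all genes. Between susceptible and resilient pools none of the 5 was DE, beside 2.14%; no gene there passed an adjusted p of 0.05 in limma, and 401 had an unadjusted p under 0.05. Glo1 had 4.56, 4.36, 4.28, 4.52 and 4.17 log2 CPM in controls, 3.62, 4.14, 4.29, 4.40 and 4.16 in resilient and 4.23, 4.00, 4.51 and 4.14 in susceptible pools, with overlap throughout. Its differences from controls were -0.25 (95% interval -0.57 to 0.067) and -0.15 (95% interval -0.49 to 0.18). Nnt differed from controls by 0.10 in resilient (95% interval -0.16 to 0.36) and -0.0061 in susceptible pools (95% interval -0.28 to 0.27), and all pools lay between 4.59 and 5.22 log2 CPM. Alad had 3.50, 3.04, 3.78, 3.37 and 3.73 log2 CPM in controls and 4.04, 4.00, 3.60 and 3.74 in susceptible pools, 0.36 higher (95% interval -0.030 to 0.75, exact permutation p = 0.0794), which did not pass the test, and it differed by -0.0016 in resilient pools (95% interval -0.37 to 0.37). The susceptible Alad value was a call under 3 alternative settings and without control replicate 3 or 5 or susceptible replicate 3. Gpnmb, with 0 to 9 reads per pool, lay -1.16 from controls in resilient pools (log2, 95% interval -2.36 to 0.048), which did not pass the test. It was a call without the mean-variance trend, under own totals and with sample weights, and without resilient replicate 2, at -1.62.

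Of 31 glutathione genes measured in the BNST, 4 were lower and 2 higher in susceptible than in control pools (list median -0.067, beside -0.011 over all genes), a share of calls near the 18.9% of all genes. Over all genes, own-total scaling moved the balance of this comparison toward higher calls. The BNST list counts are given under the deposited scaling only. With Gsr, Gstp1 (-0.71), Gpx8 (-1.32) and Gsto1 (-0.41) were lower, and Oplah, the oxoprolinase gene (0.69, adjusted p = 0.0469 in limma), and Ggt7 (0.33) were higher. In resilient pools, where 17.7% of all genes were called, 4 were lower and 2 higher as well, namely Gsr, Gpx8 (-1.35), Gpx3 (-0.85) and Chac1 (-0.46) against Oplah (0.60) and Ggt7 (0.29). In resilient pools the haem genes Slc25a38 (-0.55) and Tmem14c (-0.34) were lower. The haem genes Abcb6 (0.63 in susceptible and 0.58 in resilient pools) and Ppox (0.43 and 0.44) were higher in both. Of 12 methylglyoxal clearance genes, Haghl (0.31) was higher in susceptible pools and Aldh2 (-0.39) lower in resilient pools. The cell markers of the pools also differed: 5 of 5 choroid plexus markers and 3 of 6 neuron markers were lower in susceptible pools and 0 higher. Of 6 oligodendrocyte markers 2 were lower there and Mag was higher (0.44, and 0.49 in resilient pools). Of 6 astrocyte markers Slc1a2 (-0.42) and Slc1a3 (-0.32) were lower and Aldh1l1 (0.37) higher, of 8 microglia markers 2 were lower and 1 higher, and of 5 endothelial markers 1 was lower. The choroid plexus markers summed to 32.9 to 188 CPM in control, 23.2 to 137 CPM in resilient and 12.3 to 60.4 CPM in susceptible pools. The part of these tissue differences in the Gsr values was not tested. The genes most like Gsr over the 14 pools were Ube2e1 (r = 0.945), Ola1 (r = 0.934) and Bbx (r = 0.928), with r of 0.89, 0.87 and 0.87 between deviations from group means. Those most like Glo1 there were Ttc30b, Pcdhga3 and Zfp148 (r = 0.84 to 0.88), other genes than in blood.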

How the data were processed

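Blood mRNA of 25 mice and AGO2-bound mRNA of 14 BNST pools were analysed. Per the study's methods, the authors aligned reads to GRCm38 with STAR, counted them per gene with HTSeq, kept genes with at least 1 CPM in 6 blood or 3 BNST samples, and transformed counts with voom; the deposited values are log2 CPM with a pseudocount of 0.5 reads. All values gave whole reads within 0.0001, and reads were divided by the effective library size, 0.644 to 1.53 times the total in blood and 0.912 to 1.08 times in the BNST. The study's methods name a ComBat adjustment of the BNST data for cohort. Whole reads in the deposited values show no such adjustment, and cohort, which the labels used here do not give, was not a term.

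Groups follow the labels. The log2 values of all genes were fitted with limma 3.58.1 (R 4.3.3, a trended prior) in 1 model per data set, with Benjamini-Hochberg adjustment over all genes. Members were also tested with exact two-sided permutation tests (scipy 1.17.1), and correlations with 100000 permutations. Genes named besides the members are the 3 most similar genes per member, up to 3 measured neighbours on each side within 1 Mb and listed pathway and marker genes, for which the examples were limited in the strain comparison to those with the smallest p; Tfe3, Tmem14c, Ermap, Epb42, Hba-a1 and Hba-a2, and the genes named from BNST lists, were chosen after their values were seen. The members and lists were chosen with earlier results of these data known. The scripts were tested on simulated data. Alternatives covered scaling to own totals (together with voom weights and no trended prior), centring, pseudocount, low-value filter, sample weights and prior. They also covered groups fitted, grouping of 2 mice, title prefix (defeat comparisons only), replicate block and each library left out. The erythroid term and the list counts under own totals were added after seeing the data. The intervals cover 95%.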

Additional observations from a re-analysis of the deposited data

Results flagged for a closer look

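Of 40 groups of 4 or 5 samples, 3 held a sample far from the others by Dixon's ratio, and chance alone gives about 1 in 20. Gsr in blood was 7.51 log2 CPM in B6 resilient replicate 3, where the next value was 7.10. Gpnmb in blood was -4.99 log2 CPM in B6 susceptible replicate 4, a library with 0 reads of it, where the next value was -1.66. Gsr in the BNST was 4.60 log2 CPM in resilient replicate 2, where the next value was 5.12.

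The effect of defeat on Gsr in blood differed between the strains by -0.72 on the log2 scale (SE 0.31, limma's adjusted p = 0.918), with a difference of 0.40 in B6 and -0.32 in D2 mice. It passed the unadjusted threshold alone, as 5.37% of genes did.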

How the results depend on the processing

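Of 1570 values of the 5 genes under alternatives, 1467 kept their direction and side of the threshold, 51 reversed, 19 were no longer calls and 33 became calls. The strain calls of Alad and Gsr, the Nnt call between susceptible mice except under own-total scaling, and both Gsr calls in the BNST held throughout. The strain comparisons had no title prefix setting, since no prefix held both strains. The cause of the changes was not tested. Gpnmb had 0 to 173 reads per library in blood and 0 to 9 in the BNST.

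Between control strains, Glo1 was no call by column heading (-0.58) or without the 2 mice (-0.62), nor Nnt with only the compared groups (-0.28), own-total scaling (-0.10) or sample weights (-0.22). Between susceptible strains, Glo1 became a call with only those groups (-0.55), weights (-0.52), column headings (-0.67) or the erythroid term (-0.64), and Nnt was none under own totals (-0.26). Resilient minus control B6 values reversed for Nnt under own totals (-0.13) and weights (-0.012), and for Gpnmb under own totals (-0.19), a pseudocount of 2 (-0.37), weights (-0.54), title prefix (-0.073) and the erythroid term (-0.23). Susceptible minus control B6 values reversed under own totals for Glo1 (-0.074), Nnt (-0.033) and Alad (-0.092), and for Glo1 under quantile centring (-0.060). In D2, Glo1 reversed by column heading (-0.020) and Gpnmb with weights (-0.13), Gsr became a call with weights (-0.39), column headings (-0.53) or without the 2 mice (-0.53), and Alad with the erythroid term (-0.46). The interaction reversed for Glo1 by column heading (-0.095) and was no call for Gsr under own totals (-0.61) or quantile centring (-0.59).

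In the BNST, resilient minus control reversed for Alad under own totals (0.027), pseudocount 2 (0.0023) and quantile centring (0.045), and Gpnmb became a call without the trend (-1.16), with own totals (-1.16) and weights (-1.29). Susceptible minus control reversed for Nnt (own totals 0.068) and Gpnmb (own totals 0.039, quantile 0.038), and Alad became a call (own totals 0.43, quantile 0.39). Susceptible minus resilient became a call under own totals for Alad (0.40) and Gpnmb (1.204). Same-numbered pools correlated at -0.17 to 0.14, and the labels do not say whether the number stands for a shared cohort. With the replicate block, Alad became a call against control (0.42) and resilient pools (0.42), and Nnt against control reversed (0.029).

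Leaving out each library gave -0.85 to -0.62 for Glo1, -0.35 to -0.22 for Nnt and -2.05 to 0.053 for Gpnmb between control strains, and -0.67 to -0.38 for Glo1 between susceptible strains. Within B6 it gave -0.031 to 0.089 (Nnt) and -1.04 to 1.06 (Gpnmb) for resilient minus control, -0.091 to 0.18 (Glo1), 0.21 to 0.49 (Gsr) and -0.019 to 0.13 (Alad) for susceptible minus control, and -0.45 to 0.066 (Glo1) for susceptible minus resilient. Gsr ran from -0.48 to -0.16 in D2 and from -0.89 to -0.53 in the interaction. In the BNST, resilient minus control ran from -0.11 to 0.10 (Alad) and -1.62 to -0.72 (Gpnmb), susceptible minus control from -0.089 to 0.069 (Nnt), 0.25 to 0.44 (Alad) and -0.27 to 0.26 (Gpnmb), and susceptible minus resilient from -0.029 to 0.17 (Glo1), -0.41 to -0.14 (Gsr), 0.26 to 0.44 (Alad) and 0.72 to 1.62 (Gpnmb).

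The number of genes called moved by over 1.5 times as follows. Resilient against control B6 gave 276 calls, 128 under own totals, 508 with weights, 114 with the low-value filter and 187 to 1126 leaving out a library. Susceptible against control B6 gave 589, then 232, 333, 384 and 293 to 1060. Susceptible against resilient B6 gave 266, with 121 for only those groups, 77 under own totals, 114 with the filter, 440 with the erythroid term and 220 to 499 leaving out a library. D2 gave 206, with 341 for only those groups, 992 with weights, 118 with the filter, 890 by column heading, 519 without the 2 mice, 472 with the erythroid term and 152 to 489 leaving out a library. The interaction gave 703, with 448 under own totals, 1321 by column heading, 1070 without the 2 mice, 1326 with the erythroid term and 371 to 1086 leaving out a library. Susceptible against resilient pools gave 355, with 539 under own totals, 219 with the filter and 288 to 947 leaving out a library. Own-total scaling turned 1960 higher and 1494 lower calls between control strains into 2525 and 821, 1485 and 1622 between susceptible strains into 2357 and 754, and 1600 and 1540 between susceptible and control pools into 2445 and 981.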
